A study of Mus musculus with 64 samples.

Results

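Chromatin regulators are the enzymes and binding proteins that place, remove and read chemical marks on histones and DNA, or that move nucleosomes. The set described here holds 37 of the 24530 gene symbols in the count table, chosen by name: 13 writers, 16 erasers and 8 remodellers, readers or complex subunits. The writers were the polycomb repressive complex 2 (PRC2) genes Ezh1, Ezh2, Eed and Suz12, the histone methyltransferase family genes Kmt2a, Kmt2c, Kmt2d, Kmt2e and Setd2, the acetyltransferases Ep300 and Crebbp, and the DNA methyltransferases Dnmt1 and Dnmt3a. The erasers were the histone demethylases Kdm1a, Kdm2a, Kdm4a, Kdm5a, Kdm5b and Kdm6b, the deacetylases Hdac1, Hdac2, Hdac3, Hdac4, Hdac5, Hdac7 and Sirt1, and the dioxygenases Tet1, Tet2 and Tet3. The remaining group held Smarca4, Smarca2, Arid1a, Arid1b, Chd4, Brd2, Arid4b and Ing3.

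Single cells from mouse molars and incisors were compared, 32 of each, all from XLacZ4 mice, a strain whose lacZ transgene is known to be expressed in vascular mural cells. Cells that turned over FDG, a beta-galactosidase substrate that becomes fluorescent, were sorted, and polyA RNA was sequenced by Smart-Seq2, a full-length method without molecular identifiers. Age, sex, genotype beyond the strain and the number of animals are not given in the labels, so each tissue counts as 1 sample. Cells are not replicates, and no test was made between tissues or between classes.

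The labels call every cell a pericyte, a mural cell that wraps small vessels, and the marker genes did not bear this out for most of them. By the rule used here, 15 cells were mural-like (Rgs5 at or above 500 counts per 1000000, CPM, with 0 Csf1r reads), 9 from molars and 6 from incisors. A further 47 cells were macrophages (at least 1 Csf1r read and Rgs5 under 500 CPM), 22 from molars and 25 from incisors, and 2 cells met neither description. Rgs5 and Csf1r set these classes, so the other markers were summed without them. The 9 other mural markers summed to 1211 to 25984 CPM (median 7243) in mural-like cells and 0 to 100.7 CPM (median 0.626) in macrophages. The 9 other macrophage markers summed to 2926 to 27222 CPM (median 13589) in macrophages and 0 to 33.3 CPM (median 0) in mural-like cells, where 7 of the 9 had no read in any cell. Fibroblast markers also appeared, with a sum of 16.1 to 10952 CPM (median 2263) in mural-like cells and 0 to 2178 CPM (median 0) in macrophages, and their part in the results was not tested. The cells nearest the Rgs5 threshold were a mural-like cell at 570.4 CPM (incisor cell 2) and a macrophage at 167.1 CPM (incisor cell 25). Incisor cell 2 also had the fewest genes with a read of all cells, 922, and 15.3% of its reads were Malat1, a nuclear RNA. With a stricter class rule (Rgs5 at or above 5000 CPM, or at least 10 Csf1r reads with Rgs5 under 50 CPM), which leaves out both cells, all 12 calls over both tissues remained.

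Total counts per cell had a median of 2767910 in mural-like cells and 1428700 in macrophages. For shares of cells with a read, every cell was therefore thinned at random to 1040000 reads, which left out 7 macrophages and kept 9 molar and 6 incisor mural-like cells and 21 molar and 19 incisor macrophages. Levels are counts summed over the cells of a group, in CPM. All intervals are 95% intervals for counting error only (exact Poisson for levels and their ratios, exact Clopper-Pearson for shares), and they leave out the spread between cells. Where 0 cells had a read, the limit given is instead 3 cells of the total. Copies made by PCR cannot be told from separate molecules here, which these intervals ignore.

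As background, writers such as PRC2 and the KMT2 enzymes add methyl groups to histone tails, at silenced and at active genes respectively, and EP300 and CREBBP add the acetyl groups found at active enhancers. Erasers reverse this: KDM6B takes methyl groups off the mark that PRC2 places, histone deacetylases remove acetyl groups, and TET enzymes oxidise methylated cytosine in DNA. In macrophages, Kdm6b is known as a gene switched on by inflammatory signals, and Tet2 as a brake on inflammatory genes in myeloid cells. HDAC1 and HDAC2 work as a pair inside the NuRD, Sin3 and CoREST corepressor complexes.

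Most of these genes have promoters rich in CpG, the dinucleotide at which DNA is methylated and demethylated by several of the members themselves. RefSeq promoter windows (250 bases before to 50 after the start, build GRCm38.p6) were found for 31 of the 37 members, 43 windows in all; Hdac1, Hdac3, Kdm2a, Kdm5a, Kdm6b and Kmt2e had no window in the table. The 4 windows shown belong to 2 members with higher levels in mural-like cells (Hdac2 and Kdm5b) and 2 with higher levels in macrophages (Tet2 and Crebbp), each 5′ to 3′ on the gene's strand, with every CpG in capitals.
Hdac2, chr10:36974294-36974593, plus strand: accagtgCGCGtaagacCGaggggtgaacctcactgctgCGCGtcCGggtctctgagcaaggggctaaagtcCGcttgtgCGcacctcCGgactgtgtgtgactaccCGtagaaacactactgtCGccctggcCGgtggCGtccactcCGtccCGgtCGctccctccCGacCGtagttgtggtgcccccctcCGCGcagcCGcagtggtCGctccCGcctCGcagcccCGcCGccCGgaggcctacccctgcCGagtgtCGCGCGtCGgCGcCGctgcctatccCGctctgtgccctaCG
Kdm5b, chr1:134559928-134560227, plus strand: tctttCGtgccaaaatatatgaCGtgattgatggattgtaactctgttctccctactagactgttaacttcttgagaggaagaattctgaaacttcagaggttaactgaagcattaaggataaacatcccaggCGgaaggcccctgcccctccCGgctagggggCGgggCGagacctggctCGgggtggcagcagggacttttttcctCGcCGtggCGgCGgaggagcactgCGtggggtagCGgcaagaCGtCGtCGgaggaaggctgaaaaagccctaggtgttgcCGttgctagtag
Tet2, chr3:133544341-133544640, minus strand: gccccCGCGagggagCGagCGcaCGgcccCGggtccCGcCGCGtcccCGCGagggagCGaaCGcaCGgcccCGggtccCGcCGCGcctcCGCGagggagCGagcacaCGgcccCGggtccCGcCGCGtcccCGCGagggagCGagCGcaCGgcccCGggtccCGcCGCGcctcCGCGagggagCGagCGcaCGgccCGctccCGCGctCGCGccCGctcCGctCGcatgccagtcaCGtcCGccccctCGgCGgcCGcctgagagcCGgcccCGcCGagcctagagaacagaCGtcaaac
Crebbp, chr16:4213355-4213654, minus strand: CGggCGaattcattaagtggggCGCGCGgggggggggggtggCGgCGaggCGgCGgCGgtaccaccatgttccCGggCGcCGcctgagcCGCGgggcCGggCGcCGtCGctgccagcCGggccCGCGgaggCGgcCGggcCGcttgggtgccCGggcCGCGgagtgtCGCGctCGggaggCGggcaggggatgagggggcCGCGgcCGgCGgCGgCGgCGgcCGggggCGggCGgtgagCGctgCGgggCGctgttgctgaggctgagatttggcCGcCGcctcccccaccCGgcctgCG

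These windows held 36 (Hdac2), 17 (Kdm5b), 57 (Tet2) and 49 (Crebbp) CpGs. The first part of the Tet2 window repeats 1 CpG-dense unit, while the Kdm5b window has most of its CpGs in its second part. Over the 43 member windows, the median ratio of observed to expected CpG was 0.879, and 36 windows (83.7%) reached 0.6. The median was 0.767, with 70.9% at 0.6 or above, for the 9758 windows of genes measured in the class comparison, and 0.384, with 35.8%, for all 32851 windows. The GC box GGGCGG was in 31 of 43 member windows (72.1%), 63.7% of measured-gene windows and 35.7% of all. The cAMP response element TGACGTCA was in 2 member windows (both of Ing3), the AP-1 site TGACTCA in 3 and the E-box CACGTG in 3, against 3.08%, 3.71% and 10.1% of measured-gene windows and 1.79%, 5.2% and 7.15% of all. Neither the TATA box TATAAA nor the PU.1 core GAGGAAGT was in any of the 43, against 7.27% and 3.24% of measured-gene windows and 13.6% and 3.2% of all. Each motif was searched on both strands, the GC box overlaps CpGs, and a match is a description of letters, not a binding site.

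Each cell showed reads for only part of the set. In thinned molar mural-like cells, 6 to 19 of the 37 members had a read (median 12), and in incisor mural-like cells 5 to 19 (median 16.5). Molar macrophages had 11 to 22 and incisor macrophages 10 to 23, both with a median of 16. The ranges of all 4 groups overlap. By role, the median mural-like cell had 4 writers, 5 erasers and 3 remodellers or readers with a read, and the median macrophage 6, 5 and 4. The number of members read went with the number of all genes read, with a Spearman rho of 0.83 over 15 mural-like cells and 0.43 over 40 macrophages; both numbers come from the same library of each cell. Genes read in thinned cells had medians of 2221 in molar and 3450 in incisor mural-like cells, and 2456 and 2546 in the macrophages.

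**Figure D1:**
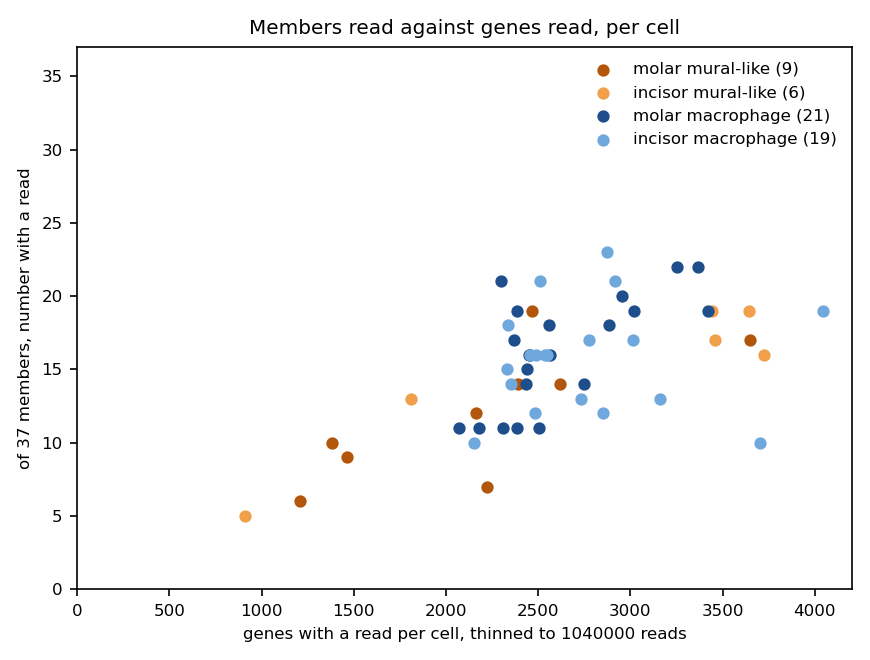
Each point is 1 cell thinned to 1040000 reads. The x axis gives the number of genes with a read and the y axis the number of the 37 members with a read, coloured by tissue and class, with the number of cells in the key. Mural-like cells with few genes read also have few members read, down to 5 members in incisor cell 2.

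Detection was uneven between members. In macrophages, Kdm6b and Brd2 had a read in 40 of 40 thinned cells, 13 members in at least 50% of the cells and 5 in under 20%, and Tet1 in 0 of 40, a limit of 7.5% by the rule of 3 cells. In mural-like cells, 9 members had a read in at least 50% of cells and 8 in under 20%, and none was read in every cell. Summed levels in mural-like cells often rested on 1 cell: for 24 of 37 members a single cell gave more than 50% of the counts, against 6 of 37 in macrophages. The groups hold 15 and 47 cells, so a single cell weighs more in the first. The same count was not made over all genes, so nothing here sets the members apart from other genes. Tet1, a dioxygenase best known from early embryonic and germ cells, was read in 1 of the 64 cells, molar cell 31, with 15 reads.

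Per kilobase of exon, Brd2 stood highest in mural-like cells at 65.7 CPM, followed by Hdac1 at 65.5 and Hdac2 at 28.5. In macrophages Kdm6b was highest at 60.4 CPM per kilobase, then Brd2 at 50.7 and Smarca4 at 27.4. BRD2 is a bromodomain protein that reads acetylated histones, and Smarca4 encodes the BRG1 ATPase that drives the SWI/SNF remodeller. Brd2 (chr17:34112023-34122634) was called in none of the 6 comparisons, with 514.3 CPM in mural-like cells and 396.9 CPM in macrophages. Its exons overlap those of H2-DMa, a gene of antigen presentation, on the other strand, and the method does not mark strand, so reads there cannot be told apart. In all, 16 of 37 members share exon bases with a gene on the opposite strand, and for 8 of them that gene is in the table.

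**Figure D2:**
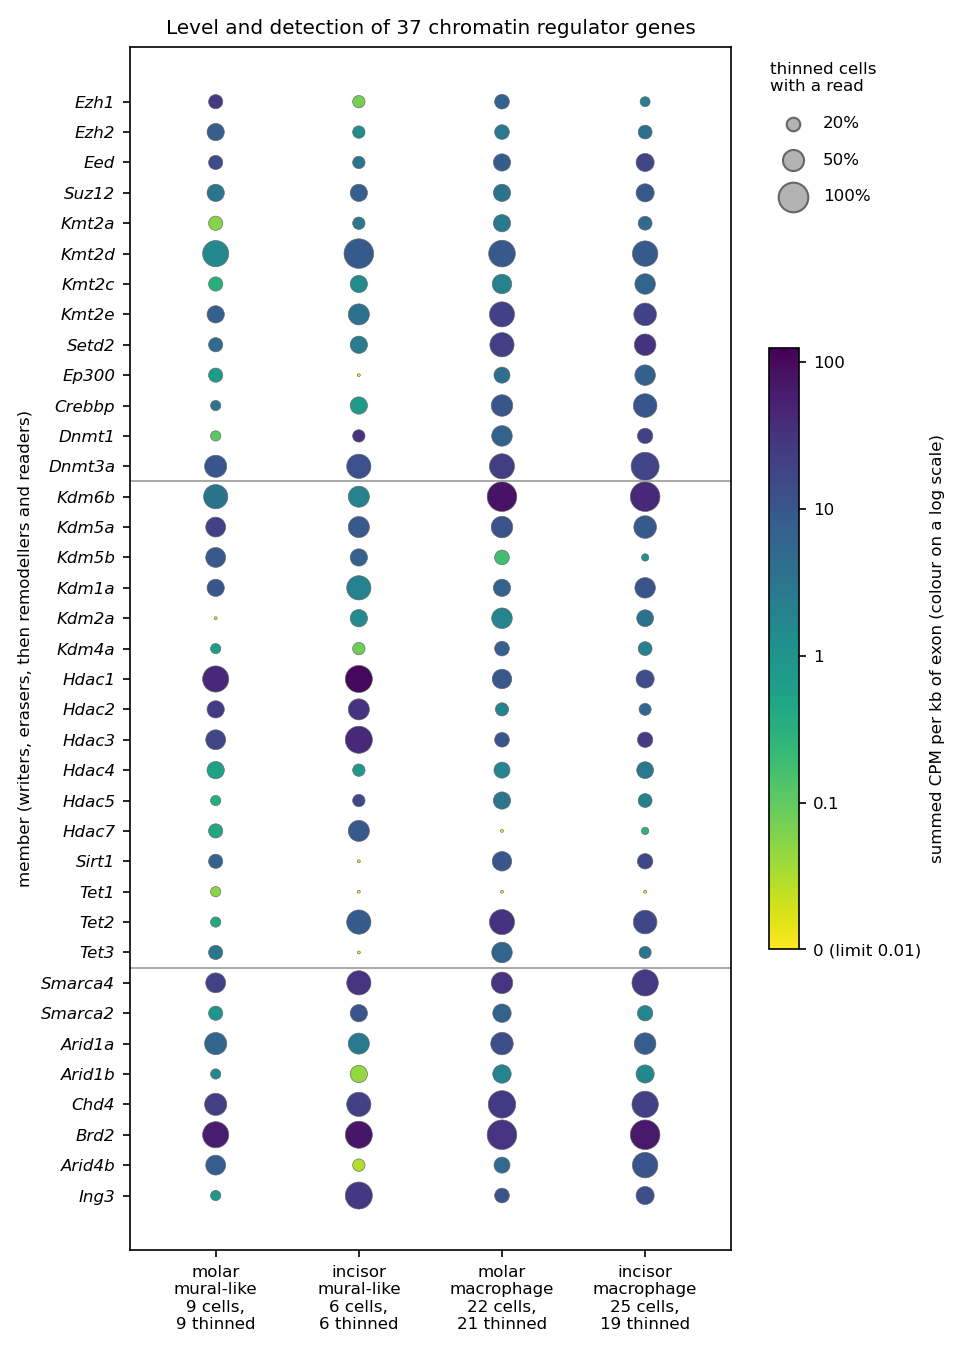
Rows are the 37 members and columns the 4 groups of cells. Colour is the summed level in CPM per kilobase of exon on a log scale, and dot area grows with the share of thinned cells with a read. Kdm6b is dark and large in both macrophage columns, Hdac1 in both mural-like columns and Brd2 in all 4.

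To compare classes, a gene was called where the mean of the 2 groups was at least 5 CPM, the summed levels differed at least 2-fold (with 1 CPM added to each), and the share of thinned cells with a read was at least 20 percentage points higher in the same group. Over both tissues, 36 members passed the 5 CPM minimum. Of these, 4 were called higher in mural-like cells, all of them erasers, and 8 higher in macrophages, 4 writers and 4 erasers. The same rule called 12% of all 9798 measured genes higher in mural-like cells and 14.6% higher in macrophages, against 11.1% and 22.2% of the members. RNA measures also moved with the classes: ribosomal Rn45s had a median of 0.548% of reads in mural-like cells and 1.89% in macrophages, and Malat1 1.27% and 3.52%. With both taken out of the totals, the 12 calls remained; any other part of these measures was not tested. The median log2 difference of mural-like over macrophage was -0.57 for members and 0.07 for all measured genes. By role the median was -1.07 for writers, -0.23 for erasers and -0.19 for remodellers and readers, and none of the last group was called. Of the 12 calls, 6 held under all 11 other settings and when each of the 62 cells was left out in turn. These were Kdm6b, Tet2, Setd2, Crebbp, Hdac1 and Kdm5b. The settings without the share rule and without the minimum level only remove a condition, so no call in any comparison could end under them.

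Kdm6b, the demethylase that removes the PRC2 mark (chr11:69398508-69413675, minus strand), differed most evenly from cell to cell. Its level per cell was 3.17 to 2184 CPM (median 390.9) in molar macrophages and 12 to 916.2 CPM (median 292.3) in incisor macrophages. Molar mural-like cells had 0 to 55.9 CPM (median 19.9) and incisor mural-like cells 0 to 50.6 CPM (median 1.17). The classes barely overlapped: 45 of 47 macrophages were above the highest mural-like cell, the exceptions being molar cell 30 at 3.17 CPM and incisor cell 25 at 12 CPM. Summed levels were 419.9 CPM in macrophages and 19.5 CPM in mural-like cells, 21.5 times higher (interval 20 to 23.1), with a read in 40 of 40 and 9 of 15 thinned cells. No single cell moved this ratio beyond 19.8 to 25.4. Its exons overlap the antisense gene Kdm6bos.

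Kdm6b was set beside 9 interleukin-1 response genes (Il1a, Il1b, Il1rn, Tnf, Nfkbia, Cxcl2, Ccl3, Ccl4 and Gch1). Their summed level had a median of 7896 CPM in macrophages, with a median of 6 of 9 genes read, and 1206 CPM in mural-like cells. No mural-like cell had reads in more than 1 of these genes. Across 47 macrophages this sum had a Spearman rho of 0.42 with Kdm6b and 0.02 with Brd2, and across 15 mural-like cells 0.68 and 0.69; cells share their library depth in both measures. Against 10 immediate early genes the rho in macrophages was 0.16 for Kdm6b and -0.04 for Brd2, and in mural-like cells -0.01 and 0.46.

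Tet2 (chr3:133463679-133545139, minus strand), whose promoter window holds the CpG-dense repeat above, was also higher in macrophages, at 398.2 against 58.4 CPM (6.82 times, interval 6.53 to 7.12). It had a read in 27 of 40 thinned macrophages and 5 of 15 mural-like cells. Per cell it was 0 to 5049 CPM (median 193.3) in molar and 0 to 2036 CPM (median 3.56) in incisor macrophages, and 0 to 58.6 CPM (median 0) and 0 to 958.6 CPM (median 3.17) in molar and incisor mural-like cells. The groups overlap, and 1 mural-like cell, incisor cell 24, gave most of the mural-like counts: without it the ratio was 53.3. Tet3 was not called (77.6 against 32.3 CPM, 13 of 40 against 2 of 15 cells). A read of any TET gene was found in 30 of 40 macrophages and 7 of 15 mural-like cells. By tissue these were 18 of 21 and 3 of 9 cells in molars, and 12 of 19 and 4 of 6 in incisors. For Tet2 the share difference of mural-like over macrophage was -60.3 points in molars and 3.51 points in incisors.

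In all, 4 writers were called higher in macrophages. Setd2, which methylates histone H3 at lysine 36 along transcribed genes (chr9:110532597-110618633), stood at 287.3 against 41.5 CPM (6.92 times, interval 6.57 to 7.28), with reads in 24 of 40 and 4 of 15 cells. Without molar cell 22, which held nearly all mural-like reads in molars, the ratio was 25.3. Crebbp, an acetyltransferase (chr16:4081328-4213997), stood at 136.1 against 31.4 CPM (4.34 times, interval 4.09 to 4.61), in 23 of 40 and 3 of 15 cells, and at 32.4 times without molar cell 23. Both genes had medians of 0 CPM in each mural-like group, while their highest macrophages reached 3604 and 1429 CPM.

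Ep300, the paralog of Crebbp, stood at 82.5 against 6.23 CPM (13.3 times, interval 11.7 to 15.1), in 15 of 40 and 2 of 15 cells, and at 140.8 times without molar cell 31. Kmt2e, a KMT2 family member that binds methylated histone H3, stood at 221.6 against 61.9 CPM (3.58 times, interval 3.43 to 3.74), in 26 of 40 and 6 of 15 cells, and at 8.52 times without molar cell 31. Both calls were less firm: Ep300 lost its call without thinning and Kmt2e when at least 5 reads were required for a read cell. Reads of both Ep300 and Crebbp were found in 9 of 40 macrophages and 0 of 15 mural-like cells, a limit of 20% by the rule of 3 cells and an exact interval of 0% to 21.8%. Exons of Kmt2e overlap those of Srpk2 on the other strand.

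The remaining calls in this direction were Kdm2a, a demethylase that binds unmethylated CpG islands, and Sirt1, an NAD-dependent deacetylase. Kdm2a stood at 40.6 against 8.06 CPM (5.04 times, interval 4.49 to 5.68; 76.1 without incisor cell 32), in 16 of 40 and 2 of 15 cells. Sirt1 stood at 75.04 against 19.97 CPM (3.76 times, interval 3.49 to 4.06; 63.6 without molar cell 1), in 14 of 40 and 2 of 15 cells. Neither call held without thinning or with at least 5 reads required. For Kdm2a the share difference of mural-like over macrophage was -47.6 points in molars and 1.75 points in incisors.

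Hdac1, the class I deacetylase (chr4:129516104-129542713, minus strand), was the most widely read member called higher in mural-like cells. Its level per cell was 0 to 305.1 CPM (median 129.4) in molar and 0 to 983.2 CPM (median 175.7) in incisor mural-like cells, and 0 to 483.6 and 0 to 324.7 CPM (both medians 0) in molar and incisor macrophages. Above 100 CPM were 10 of 15 mural-like cells and 5 of 47 macrophages, so the ranges overlap. Summed levels were 225.5 against 40.4 CPM (5.58 times, interval 5.36 to 5.82), with reads in 12 of 15 and 16 of 40 cells, and the ratio lay between 4.52 and 7.64 when any 1 cell was left out.

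Its partner Hdac2 stood at 127.5 against 17.4 CPM (7.32 times, interval 6.88 to 7.79), in 6 of 15 and 7 of 40 cells. This call ended, at a share difference of 18.2 points, without molar cell 19, 22 or 31 or incisor cell 22, 24 or 28, each a mural-like cell with reads, and also without thinning. Without incisor cell 17, a macrophage at 676.9 CPM, the ratio was 20.9. Reads of both Hdac1 and Hdac2 were found in 5 of 15 mural-like cells and 3 of 40 macrophages. Hdac3, the NCoR-bound class I deacetylase, was not called, at 112.3 against 71.6 CPM, although read in 9 of 15 and 10 of 40 cells. At least 1 of the 3 class I genes was read in 14 of 15 mural-like cells and 24 of 40 macrophages.

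Kdm5b, which removes methyl groups from lysine 4 of histone H3 (chr1:134560171-134635285), stood at 137.6 against 11.6 CPM (11.9 times, interval 11.1 to 12.8), in 6 of 15 and 6 of 40 cells. Most mural-like cells had none: 5 of 15 were above 100 CPM, the highest at 741.8 CPM, against 1 of 47 macrophages. That macrophage, incisor cell 27 at 468.2 CPM, held nearly all macrophage reads, and the ratio was 104.8 without it. Its paralog Kdm5a was not called (235.0 against 141.3 CPM, 7 of 15 and 22 of 40 cells), and its exons overlap those of Ccdc77.

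Hdac7, a class IIa deacetylase, stood at 26.9 against 0.95 CPM (28.3 times, interval 22.2 to 36.5), in 5 of 15 and 1 of 40 cells, and rested on incisor cell 22 at 336.2 CPM. Without that cell the ratio was 2.44 and the call ended; without incisor cell 1, the only macrophage with reads, it was at least 644.3. The call also ended with at least 5 reads required and with a minimum of 20 CPM. Exons of Hdac7 overlap those of Slc48a1 on the other strand.

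**Figure D3:**
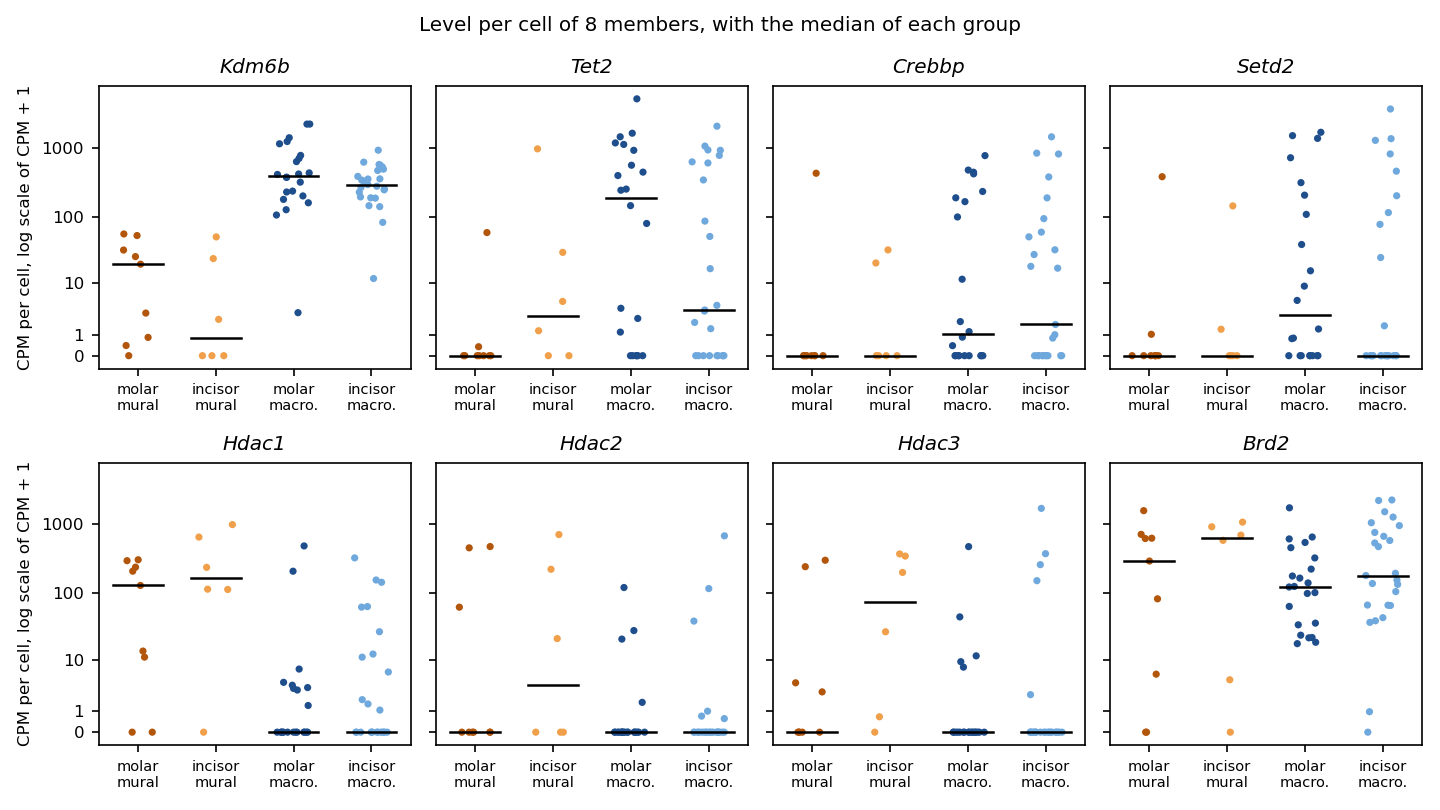
Each point is 1 cell and the line the group median, on a log scale of CPM plus 1, for 8 members in the 4 groups. Kdm6b separates the classes in all but 2 macrophages, while Tet2, Crebbp, Setd2, Hdac2 and Hdac3 show many cells at 0 with a few high ones.

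The other 24 measured members were not called over both tissues. The PRC2 genes Ezh1, Ezh2, Eed and Suz12 were read in 20% to 33.3% of mural-like cells and 17.5% to 35% of macrophages. Reads of Eed, Suz12 and at least 1 of Ezh1 and Ezh2 met in 1 of 15 mural-like cells and 1 of 40 macrophages. Dnmt3a, which sets new DNA methylation, was among the more abundant, at 187.7 CPM in mural-like cells and 346.7 CPM in macrophages, in 9 of 15 and 32 of 40 cells. Its table row may share reads with the pseudogene Dnmt3a-ps1 and the antisense gene Dnmt3aos. Kmt2d, which methylates lysine 4 of histone H3 at enhancers, was the member most often read in mural-like cells, in 13 of 15, against 31 of 40 macrophages. Chd4, the ATPase of NuRD, had nearly equal levels (170.8 and 185.9 CPM) but reads in 9 of 15 mural-like cells and 33 of 40 macrophages.

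Dnmt1, which copies DNA methylation onto new strands, and Ezh2 are known to be raised in dividing cells. In 5 cells, 8 or more of 15 cell cycle genes had a read (molar cells 2 and 21 and incisor cells 10, 26 and 32). Without thinning, Ezh2 was read in 4 of these 5 and in 11 of the 59 others, and Dnmt1 in 3 of 5 and 16 of 59. These counts include cells that thinning left out, and incisor cell 26 counts as read with Ezh2 at 0.487 CPM. The 5 cells had 3331 to 4213 genes with a read, against medians of 2529 in mural-like cells and 2587 in macrophages. The part of this in the counts was not tested. The high cells were not all among these 5: the highest Ezh2 level, 501.4 CPM, and the highest Dnmt1 level, 1356 CPM, were in cells outside this group.

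Of 89 other chromatin genes in a fixed list, 80 were measured in the class comparison, 4 called higher in mural-like cells and 16 higher in macrophages. By role, these were 3 and 3 of 27 other writers, 1 and 4 of 19 other erasers, and 0 and 9 of 34 other remodellers and readers. Their median log2 differences were -0.51, 0.28 and -0.14. Writers were thus lowest here as among the members, while the order of erasers and of remodellers and readers was not repeated. Prmt1, an arginine methyltransferase, stood at 206.3 against 13.7 CPM (10 of 15 and 5 of 40 cells; 15 times, 25.6 without molar cell 16). Rbbp7, a histone-binding subunit shared by PRC2 and the HDAC1 complexes, stood at 620.5 against 63.5 CPM (13 of 15 and 15 of 40 cells; 9.77 times, 17.7 without incisor cell 1). In the other direction, Kdm7a, a demethylase, stood at 162.8 against 0.775 CPM (25 of 40 and 1 of 15 cells; 210.1 times, and at least 1944 without molar cell 31). Chd2, a remodeller, stood at 319.7 against 116.3 CPM (31 of 40 and 4 of 15 cells; 2.75 times, 8.81 without molar cell 15).

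Within molars, 35 members were measured, 2 were called higher in mural-like cells and 9 higher in macrophages, against 12.6% and 18.2% of all genes. Within incisors, 36 were measured and 4 and 6 called, against 17.8% and 18%. With the stricter class rule, 5 mural-like cells and 24 macrophages of incisors were left. Then 5 and 6 members were called, against 26.4% and 16.5% of all genes. By the fold alone, 5 and 18 members passed in molars, against 36.1% and 41.9% of all genes, and 6 and 19 in incisors, against 36% and 40.3%. The 2 tissues shared no cells. Of the 35 members measured in both, 2 were called higher in macrophages in both (Kdm6b and Crebbp) and 2 higher in mural-like cells in both (Hdac1 and Kdm5b), 5.71% each way. Of all 7315 genes measured in both, 11.2% and 7.44% were, so the members' shares were not above the background. In molars and incisors respectively, Kdm6b was 23.2 and 23 times higher in macrophages and Hdac1 4.37 and 7.51 times higher in mural-like cells. Crebbp was 3.04 and 13.4 times higher in macrophages, and Kdm5b 57 and 5.79 times higher in mural-like cells. Single cells moved these: Hdac1 to 11.8 without molar cell 11 and 13.7 without incisor cell 25, Kdm6b in incisors to 65.9 without incisor cell 22, and Crebbp to at least 963.2 without molar cell 23 and 26.8 without incisor cell 10. Without thinning the molar call of Kdm6b ended, since 8 of 9 mural-like cells then had a read, and with at least 5 reads required the incisor call of Crebbp ended. The Kdm5b call in molars, at 20.6 points, ended without any 1 of 20 of the 31 cells; without molar cell 11 the ratio was 143.5. In incisors it ended without cell 22 (1.47 times) or cell 28 (5.74 times), and was 4280 without cell 27.

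In molars 7 members were called higher in macrophages without a call in incisors. Summed levels of Dnmt1 and Hdac5 went the other way in incisors, at log2 ratios of mural-like over macrophage of 0.69 and 2.93. Those of the others kept their direction. Tet2 stood at 523.6 against 7.22 CPM (15 of 21 and 1 of 9 cells; 72.6 times, 10888 without molar cell 17). Kdm2a stood at 25.2 CPM against 1 read over 9 mural-like cells (10 of 21 and 0 of 9 cells; ratio 596.8, interval 106.8 to 23600; at least 176.5 without molar cell 19). Dnmt1 stood at 50.3 against 0.717 CPM (10 of 21 and 1 of 9 cells; 70.1 times, 40.9 without molar cell 18, 44.7 without molar cell 29 and at least 345.1 without molar cell 1). Kmt2c, which methylates lysine 4 of histone H3, stood at 38.1 against 6.37 CPM (9 of 21 and 2 of 9 cells; 5.97 times, 23.8 without molar cell 13), and its call ended without any 1 of 16 cells. Hdac5, a class IIa deacetylase, stood at 28.1 against 3.17 CPM (7 of 21 and 1 of 9 cells; 8.88 times, at least 192.2 without molar cell 22), and its call ended without any 1 of 7 cells. Kmt2e was 2.88 times higher (12.9 without molar cell 31) and Setd2 4.58 times higher (1596 without molar cell 22).

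In incisors, Ep300, Sirt1, Eed and Arid4b were called higher in macrophages and Hdac2 and Hdac7 higher in mural-like cells, without a call in molars. Summed levels of Eed and Arid4b went the other way in molars, and those of Ep300, Sirt1, Hdac2 and Hdac7 kept their direction. The log2 ratios of mural-like over macrophage were 0.83 (Eed) and 0.73 (Arid4b) in molars, against -2.38 and -7.10 in incisors. Ep300 and Sirt1 had 0 reads in the 6 incisor mural-like cells, against 102.4 and 94.4 CPM in macrophages, at least 512.7 and 472.6 times higher with 3 counts set over the group (at least 276.8 for Ep300 without incisor cell 9, and at least 311.1 for Sirt1 without incisor cell 17). Arid4b, a subunit of the Sin3 corepressor, stood at 181.7 against 0.333 CPM, in 14 of 19 and 1 of 6 cells (545.7 times); its exons overlap those of Ggps1. Eed, the PRC2 subunit that binds the mark it helps place, stood at 71.1 against 12.9 CPM (7 of 19 and 1 of 6 cells; 5.54 times, at least 326.9 without incisor cell 2), and its call ended without any 1 of 12 cells. Hdac2 was 5.6 times higher in mural-like cells (34.5 without incisor cell 17, 2.1 without incisor cell 24). Hdac7 was 35.7 times higher there, at least 782.7 without incisor cell 1, and without incisor cell 22 its direction turned, to 0.319 times.

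Summed levels had 1 direction in both tissues for 26 members, 19 lower and 7 higher in mural-like cells, and opposite directions or no difference for 11. In molars, 24 of 35 measured members and 4540 of 8683 measured genes were lower in mural-like cells. In incisors these were 24 of 36 and 4653 of 9112. Of the 13 writers, 10 were lower in mural-like cells in molars and 12 in incisors. The writers among the other chromatin genes were lower in 20 of 26 and 16 of 27. Among the other chromatin genes, Prmt1 and Rbbp7 were called in both tissues: Prmt1 at 19.9 times in molars (4193 without molar cell 16) and 9.65 in incisors (23.2 without incisor cell 1), Rbbp7 at 7.93 (15.7 without molar cell 20) and 13 (38.7 without incisor cell 1). In the other direction the widest share differences were those of Chd2 (18 of 21 against 2 of 9 cells; 3.77 times, 2177 without molar cell 15) and the acetyltransferase Kat6a (12 of 21 against 0 of 9; at least 143.1 times) in molars. In incisors they were those of Kdm7a (12 of 19 against 0 of 6; at least 743.9 times, or 474.3 when incisor cell 23 was left out) and the methyltransferase Dot1l (10 of 19 against 0 of 6; at least 417.5 times, 111.3 without incisor cell 17).

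**Figure D4:**
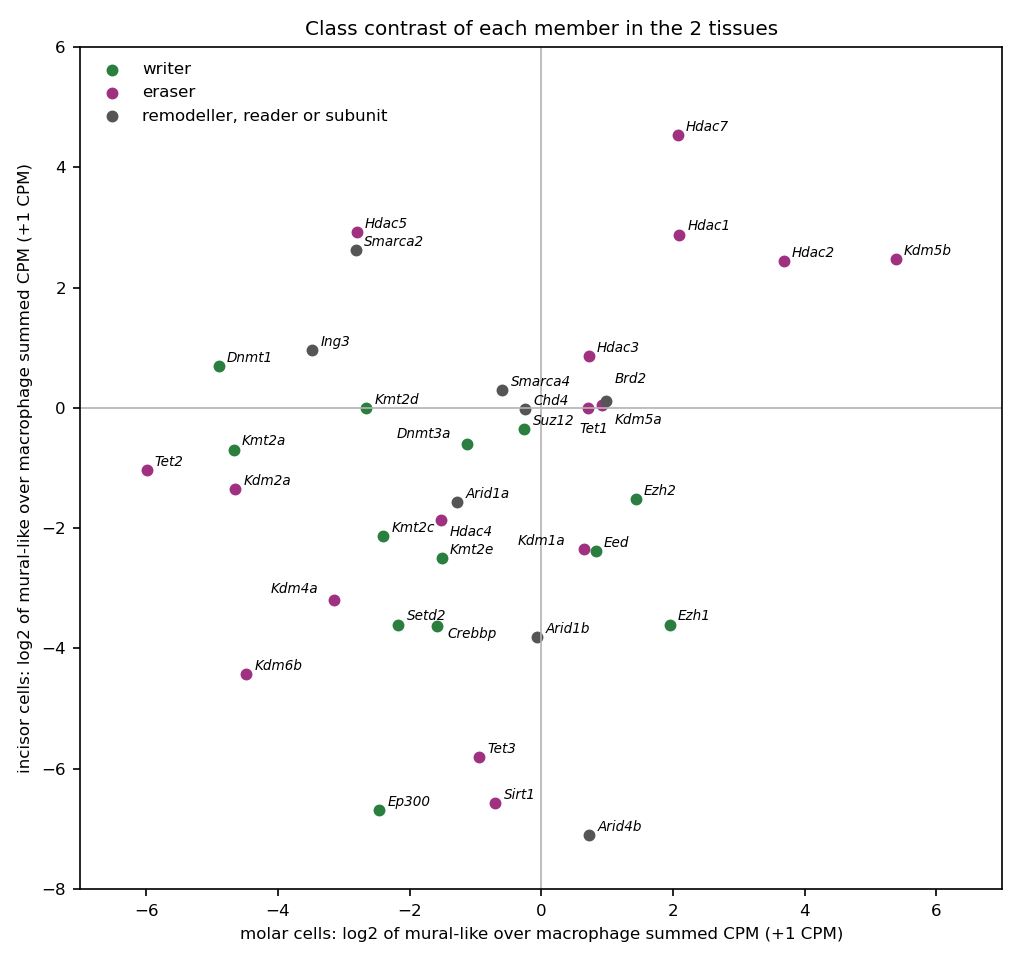
Each point is 1 member. The x axis gives the log2 ratio of mural-like over macrophage summed CPM in molar cells and the y axis the same ratio in incisor cells, with 1 CPM added, coloured by role. Kdm6b lies at -4.48 and -4.43, Hdac1 at 2.1 and 2.88, and Ezh1, Hdac5 and Smarca2 lie in opposite corners.

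Molar and incisor cells, which the labels set against each other, differed in few members. Over all 64 cells, 36 members were measured; 1 was called higher in molars and 1 in incisors, against 0.624% and 2.7% of all genes. Tet3 stood at 81.4 CPM in molars and 38.9 CPM in incisors, in 13 of 31 and 3 of 26 cells, and its call ended without any 1 of 17 cells, with the ratio at 1.63 without molar cell 12 and 23.3 without incisor cell 14. It also ended with 5 CPM added and with cells weighted equally. Ing3, a subunit of the NuA4 acetyltransferase complex (chr6:21949571-21976038), stood at 33 and 80.7 CPM, in 6 of 31 and 12 of 26 cells (2.44 times higher in incisors). Its call ended without incisor cell 7 (1.93 times) or 24 (1.94 times), without thinning and with at least 5 reads required, and the ratio was 3.76 without molar cell 8 and 4.01 without molar cell 12. Of the other chromatin genes, 5 of 80 were called higher in incisors and 0 in molars, led by Nsd1, which methylates lysine 36 of histone H3 (11 of 31 and 19 of 26 cells; 3.24 times), and the remodeller Ino80 (5 of 31 and 12 of 26; 6.31 times, 177.7 without molar cell 18, 3.10 without incisor cell 10).

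Within macrophages, 35 members were measured and Arid4b alone was called, higher in incisors, against 2.38% of all genes called higher in molars and 4.16% in incisors. It stood at 83.6 CPM in molars and 181.7 CPM in incisors, 2.17 times higher (interval 2.08 to 2.27), with reads in 6 of 21 and 14 of 19 cells. Per cell it was 0 to 622.6 CPM (median 0) in molars and 0 to 1319 CPM (median 8.24) in incisors, so the ranges overlap. Its level ratio sits near the 2-fold limit, and the call ended without molar cell 8 (1.99) or incisor cell 3 (1.67), 9 (2.01), 21 (1.95) or 26, and with ratios divided by the median of all genes; without molar cell 32 the ratio was 4.34. Kdm6b was not called here: it stood at 544.2 CPM in molar and 308.4 CPM in incisor macrophages, with a read in every thinned cell of both. Of 77 other chromatin genes measured, 3 were called higher in molars and 4 in incisors. Sirt2, a deacetylase, was read in 2 of 21 and 14 of 19 cells (2.92 times higher in incisors, 1.95 without incisor cell 4, 20.5 without molar cell 30), and Nsd1 in 9 of 21 and 14 of 19 (2.53 times, 1.58 without incisor cell 9). Chd3 and Mta2, both NuRD subunits, were higher in molars: Chd3 in 9 of 21 and 3 of 19 cells (6.36 times, 14.1 and 10.2 when incisor cell 6 or 21 was left out) and Mta2 in 11 of 21 and 5 of 19 (5.54 times).

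Within the 15 mural-like cells, 35 members were measured; 4 were called higher in molars and 6 in incisors, 11.4% and 17.1%, against 8.38% and 17.2% of all genes. The members' shares are thus near the background under this rule, and with 9 against 6 cells most values rest on 1 cell. The stricter class rule, which leaves out incisor cell 2, compared 9 with 5 cells. It called 5 and 7 of 35 members, against 8.16% and 29.1% of all genes. Under every setting and omission tried, 2 calls held. Ing3 stood at 3.97 CPM in molars and 128.6 CPM in incisors, in 1 of 9 and 5 of 6 cells, with 0 to 34.8 CPM (median 0) and 0 to 515.7 CPM (median 80.5) per cell. It was 32.4 times higher in incisors, 2703 without molar cell 19 and 16.8 without incisor cell 24. Arid4b went the other way from macrophages: 139 CPM in molars and 0.333 CPM in incisors, in 4 of 9 and 1 of 6 cells (417.6 times, 199.2 without molar cell 1). The difference between the classes was not tested.

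The other 8 calls ended under some omission. Kmt2d (178 against 29 CPM, 6 of 6 and 7 of 9 cells) and Hdac3 (179 against 70.1 CPM, 5 of 6 and 4 of 9) were higher in incisors, by 6.13 and 2.56 times. The Kmt2d call ended without molar cell 4 (5.64) or 15 (5.59), and its ratio was 17.6 without molar cell 13 and 3.21 without incisor cell 28. The Hdac3 call ended without incisor cell 22 (1.92), and its ratio was 5.10 without molar cell 1 and 3.89 without molar cell 17. Tet2 (139.2 against 7.22 CPM, 4 of 6 and 1 of 9 cells) was 19.3 times higher in incisors, 1.10 without incisor cell 24 and 2894 without molar cell 17. Kdm2a (20.7 CPM against 1 read, 2 of 6 and 0 of 9 cells) was 490.7 times higher (interval 87.4 to 19441), 35.8 without incisor cell 32, where the call ended, and at least 145.1 without molar cell 19. Hdac7 was 20 times higher in incisors (98.7 without molar cell 15), its call ended without incisor cell 24 or 28, and without incisor cell 22 its direction turned, to 0.179 times.

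Ep300, Sirt1 and Tet3 were read in 2 of 9 molar and 0 of 6 incisor mural-like cells, at least 50.9, 163.3 and 264.5 times higher in molars. Without molar cell 31 for Ep300 and molar cell 1 for the other two, these bounds were 5.05, 10.2 and 1.70 and the calls ended, as they did without molar cells 4, 15 and 17 respectively. For 0 of 6 cells the limit by the rule of 3 cells is 50%. Of 66 other chromatin genes measured, 6 were called higher in molars and 18 in incisors. The widest were the acetyltransferase Kat7 (0 of 9 and 4 of 6 cells; at least 1011 times, 608.9 without incisor cell 28) and Nsd1 (1 of 9 and 4 of 6; 98.6 times, 23.5 or at least 969.8 when incisor cell 32 or molar cell 1 was left out), both higher in incisors. Higher in molars were the NuRD subunit Mta1 (4 of 9 and 0 of 6; at least 340.2 times, 141 without molar cell 13) and the remodeller Smarca5 (6 of 9 and 2 of 6; 4.87 times, 36.5 without incisor cell 32).

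**Figure D5:**
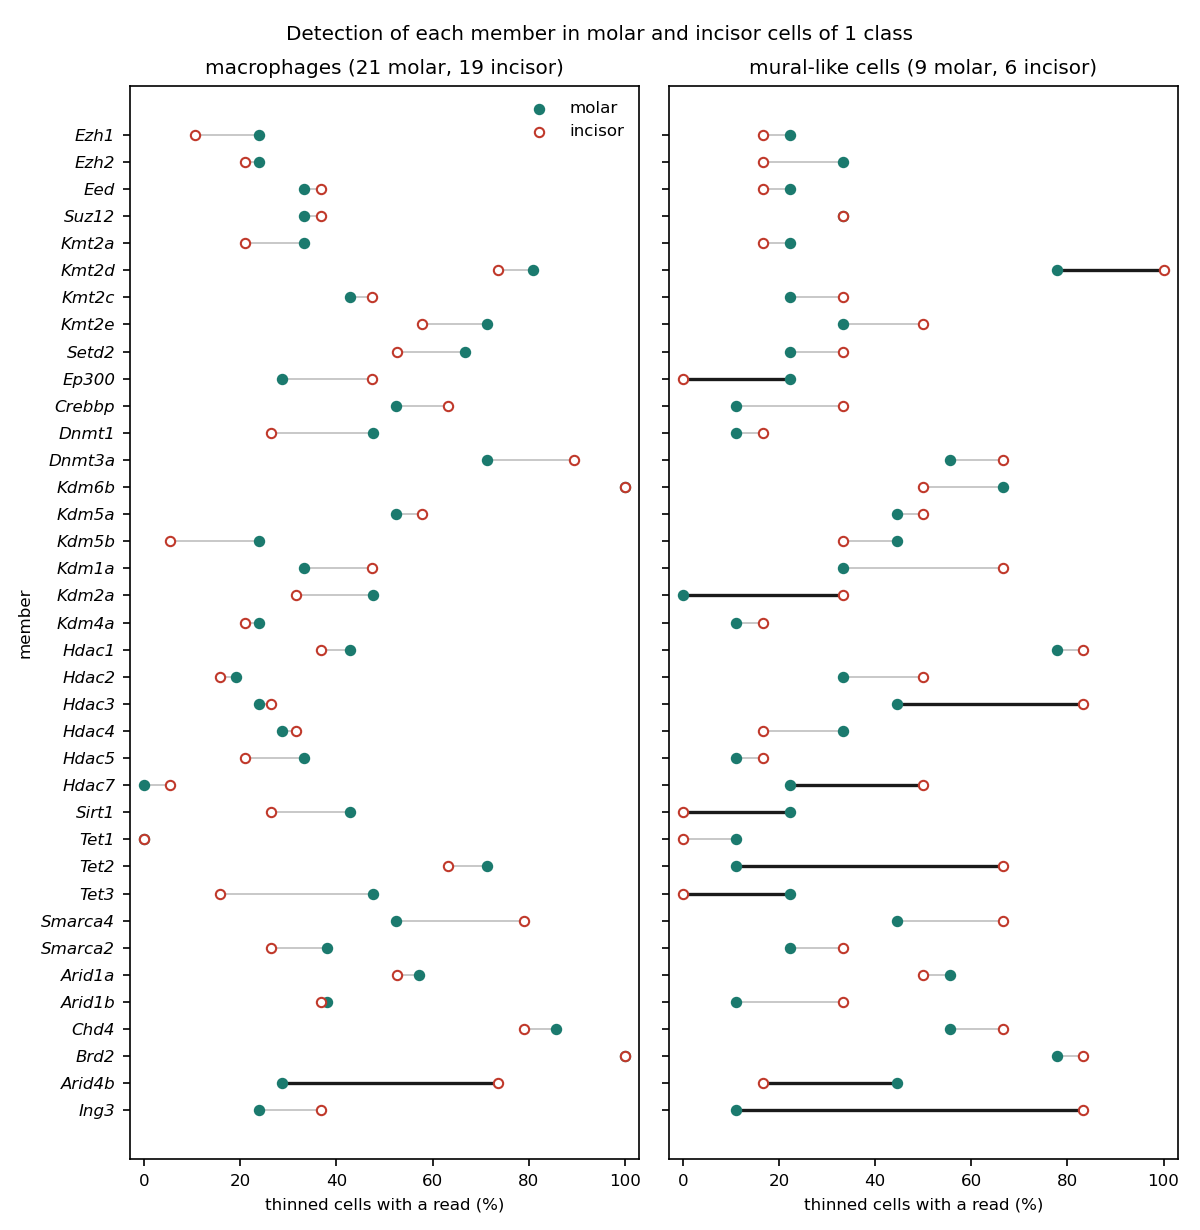
Rows are the 37 members, and each line joins the share of thinned molar cells (filled) and incisor cells (open) with a read, for macrophages on the left and mural-like cells on the right; thick lines are members called. The single thick line on the left is Arid4b, and the longest on the right is Ing3.

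For 9 pairs of paralogs, cells with reads of both members were counted. Reads of both members were found in 26.7% of mural-like cells and 37.5% of macrophages for Kmt2c and Kmt2d, the highest share in macrophages, and in 6.67% and 2.5% for Ezh1 and Ezh2. For Smarca4 and Smarca2, the alternative ATPases of SWI/SNF, both were read in 3 of 15 mural-like cells and 7 of 40 macrophages, Smarca4 alone in 5 and 19, and Smarca2 alone in 1 and 6. For Arid1a and Arid1b, alternative SWI/SNF subunits, both were read in 1 of 15 and 8 of 40 cells, and for Tet2 and Tet3 in 1 and 10. Hdac4 and Hdac5 were read together in 1 and 3 cells, and Kdm5a and Kdm5b in 2 and 5.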

How the data were processed

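Smart-Seq2 reads of 64 single cells were deposited by the authors as whole-number counts per gene symbol and cell, without scaling. Per the submitters' processing notes, Trim Galore, HISAT2 (2), Seurat (3) and build mm10 were used, in unstated roles. Which counter, annotation and strand setting applied was not given in the sources used here. Another 124 columns match no labelled cell and were not used. Counts were summed per group and scaled to CPM; exon lengths and positions are from GENCODE M21 (GRCm38, the assembly of mm10). Total counts ran from 514492 to 3171734 per cell. The fold part of the comparison was tested on simulated Poisson counts, with 1 rate per gene in all cells of a class. That simulation held no further spread between cells and no PCR copies, and the rule on shares was not part of it. The members, lists and rule were chosen with earlier results of these data known. Members named in full are those called in any of 6 comparisons and the 3 highest per length in each class; of the other chromatin genes, the 2 with the widest share difference each way are named. Nsd2 and Nsd3 are listed as Whsc1 and Whsc1l1. The alternatives were other pseudocounts, minimum levels, scalings, weights, read minimums, thinning, class rules and leaving out each cell. Python 3.11.15, NumPy 2.4.6, pandas 2.3.3, SciPy 1.17.1 and matplotlib 3.10.9 were used.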

Additional observations from a re-analysis of the deposited data

Results flagged for a closer look

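For 4 members the class contrast was at least 2-fold in opposite directions in the 2 tissues; the difference between tissues was not tested. As the log2 ratio of mural-like over macrophage summed CPM, Ezh1 stood at 1.95 in molars and -3.60 in incisors, with 99.2% of its molar mural-like reads in molar cell 4. Ezh2, the other PRC2 methyltransferase, stood at 1.43 and -1.52, with 84.7% of its molar mural-like reads in molar cell 22. Hdac5 stood at -2.80 in molars and 2.93 in incisors, where incisor cell 24 held every mural-like read. Smarca2 stood at -2.81 and 2.63, read in 2 of 6 incisor mural-like cells at 289 and 496.8 CPM, and in 2 of 9 molar mural-like cells at up to 93.3 CPM.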

How the results depend on the processing

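The direction of all 504 gene values under other settings was that of the values given. Settings on minimum levels, read minimums, thinning and shares leave the ratio itself unchanged, and a larger pseudocount cannot turn it. Only the scaling, the totals, the weights and the class rule could have turned a direction, and none did. Of 46 gene results, 44 kept their direction when each cell was left out. The other 2 were both Hdac7, which turned without incisor cell 22. With the fold alone and no rule on shares, the members called were 12 (all cells), 13 (macrophages) and 25 (mural-like cells) between tissues, and 21 (both tissues), 23 (molars) and 25 (incisors) between classes. Between tissues, the fold alone passed 22.8% of all genes as higher in molars and 28.1% as higher in incisors over all cells. These were 25.2% and 31.5% in macrophages and 31.4% and 37.3% in mural-like cells. The members' 12 of 36 (all cells) and 13 of 35 (macrophages) lay below the background, and their 25 of 35 in mural-like cells did not. Over both tissues the fold alone passed 35.7% and 35% of genes between classes. Over all cells, 1 member in place of 2 was called with 5 CPM added, with cells weighted equally and with at least 5 reads required. Leaving out each cell gave 0 to 2, 0 to 2 and 8 to 13 calls between tissues, and 10 to 16, 9 to 14 and 9 to 14 between classes. With at least 5 reads required, shares with both paralogs were 0% for Ezh1 and Ezh2, Tet2 and Tet3, and Arid1a and Arid1b in mural-like cells, and 12.5% for Tet2 and Tet3 in macrophages; another random thinning gave 0% for the first and the last pair in mural-like cells. The other settings left the counts of calls within 1.5 times. Other pair shares moved by over 1.5 times within their exact intervals: in macrophages Hdac1 and Hdac2 (7.5%) came to 2.5% with at least 5 reads and 12.8% without thinning, Arid1a and Arid1b (20%) to 10% and Kdm5a and Kdm5b (12.5%) to 7.5% with at least 5 reads, and in mural-like cells Kdm5a and Kdm5b (13.3%) to 26.7% without thinning. No paired analysis was possible because replicate numbers only name cells and the labels name no animals, and no test was made. With 1 sample per tissue, nothing here measures the spread between animals. At 6 to 9 mural-like cells per tissue, shares have wide intervals: 3 of 6 cells allows 11.8% to 88.2%.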

Other observations

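The 2 cells in neither class are given as values. Molar cell 10 had 0 Rgs5 and 0 Csf1r reads and a dental epithelium marker sum of 564120 CPM; of the members it had Eed at 642.4 CPM, the highest cell of all others being at 495.3 CPM, Tet2 at 381.5, Chd4 at 284.9 and Kdm6b at 24.5 CPM, and 0 Brd2 reads. Incisor cell 13 had both Rgs5 at 2301 CPM and 839 Csf1r reads; its Kdm6b level, 710.0 CPM, was in the range of the macrophages and above that of every mural-like cell, and its Hdac1 and Hdac2 reads were 0.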
